A study of Homo sapiens with 9 samples.

Results

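NRF2 (gene symbol NFE2L2) is a transcription factor of the cap'n'collar (CNC) family, and 9 genes of its immediate control circuit were read here: NFE2L2 itself, its CNC relatives NFE2L1, NFE2L3, BACH1 and BACH2, the small MAF partners MAFG and MAFF, and the ligase genes KEAP1 and CUL3. They were chosen by name, and every probe set that the array annotation assigns to exactly 1 of these genes was used, which gave 21 of the 41091 single-gene probe sets. NFE2L2, NFE2L1, BACH1 and CUL3 have 3 each, NFE2L3, BACH2, MAFG and MAFF have 2 each, and KEAP1 has 1. Probe sets of 1 gene are assigned to the same gene, may read different transcripts of it, and are not independent of each other.

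The cells were A549, an established human lung adenocarcinoma line known to carry a KEAP1 mutation and constantly active NRF2. They received an siRNA against Nrf2 mRNA (25 nM), a non-targeting siRNA named NS (25 nM), or the transfection reagent with no siRNA (mock). RNA was taken after 96 h from 3 biological replicates of each group, and each was read on its own array. The series has 1 siRNA condition against Nrf2 and no rescue, so loss of NRF2 and off-target effects of that siRNA cannot be told apart. Expression is on a log2 scale, where a difference of 1 is a doubling, and levels of different probe sets cannot be set against each other.

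NRF2 pairs with a small MAF protein and binds antioxidant response elements in the genes of detoxification, glutathione synthesis and iron handling. In unstressed cells KEAP1 holds NRF2 on the CUL3 ubiquitin ligase, which sends it to the proteasome. BACH1 and BACH2 occupy the same elements with the same small MAF partners and repress them. NFE2L1 (NRF1) is best known for driving proteasome genes, and the functions of NFE2L3 (NRF3) are less well defined.

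The 9 arrays had medians between 7.51 and 7.57, and the median standard deviation (SD) between replicates was 0.0732 over single-gene probe sets. The number of arrays limits the precision. Of 10 markers of the A549 line, 9 had a single-gene probe set, all of them above the median level and 7 above the 90th percentile. Of 3 leukocyte, 4 endothelial and 6 fibroblast genes measured, 2, 1 and 3 also stood above the median level. Above the 90th percentile was 1 of them, COL1A1. The summed level of the 9 A549 markers (log2 of the summed linear values) lay at 16.83 to 16.91 after Nrf2 siRNA, 17.28 after NS siRNA and 17.27 to 17.29 in mock. Within this list AKR1B10, AKR1C1 and ALDH3A1 are known NRF2 targets. They averaged 13.35, 13.79 and 10.49 after Nrf2 siRNA, 14.76, 14.85 and 13.17 after NS siRNA, and 14.80, 14.82 and 13.34 in mock. EPCAM averaged 9.83 after Nrf2 siRNA, 9.34 after NS siRNA and 8.63 in mock. CDH1 averaged 10.00, 9.53 and 9.07 in the same order of groups, so that both were lowest in mock. The summed level of 6 fibroblast genes lay at 11.87 to 12.09 after Nrf2 siRNA, 11.01 to 11.05 after NS siRNA and 11.47 to 11.77 in mock. In that list COL1A1, the brightest, averaged 11.24 after Nrf2 siRNA, 10.12 after NS siRNA and 11.06 in mock, LUM averaged 9.32, 6.31 and 7.01, and THY1 8.22, 7.88 and 7.99, in the same order of groups. COL1A2 (7.64, 7.64 and 7.62), DCN (8.12, 8.18 and 8.09) and PDGFRA (7.44, 7.43 and 7.39) had group means within 0.1 of each other. The summed level of 3 leukocyte genes lay at 9.84 to 9.96, 9.49 to 9.59 and 9.41 to 9.53 in that order, with CD14 at 8.83, 7.87 and 7.84, PTPRC at 7.26, 7.26 and 7.13 and CD3E at 8.39, 8.49 and 8.40, and that of 4 endothelial genes at 9.52 to 9.67, 9.66 to 9.70 and 9.58 to 9.64. The part of these shifts in the values below was not tested. In bulk RNA, fewer cells with a transcript and less transcript per cell cannot be told apart.

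After Nrf2 siRNA the transcripts of NRF2, of its partner MAFG and of its inhibitor KEAP1 were lower than in either control, and that of NFE2L1 was higher. Against NS siRNA, 13 of the 21 probe sets passed the test, 10 lower and 3 higher. Over all single-gene probe sets 41.7% passed, 21.5% lower and 20.2% higher, so that a call by itself was common. The shares of all probe sets given here and below are not matched for brightness. Of the 21, 15 stood above the median level, where a larger share of all probe sets passed in each comparison. An excess of calls among the 21 over these shares can therefore reflect their level. The median log2 difference was -0.15 over the 21 and -0.04 over all. Against mock, 12 of 21 passed, 6 lower and 6 higher, with 28.6% of all probe sets called, 13.3% lower and 15.2% higher, and medians of -0.05 and -0.01. The 3 Nrf2 siRNA arrays lay below all 6 control arrays for 7 of the 21 probe sets and above them for 4, against 14.0% and 14.3% of all probe sets. Both comparisons use the same 3 Nrf2 siRNA arrays. The tests are limma's, adjusted by Benjamini-Hochberg over the 41091 probe sets with a threshold of 0.05.

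**Figure D1:**
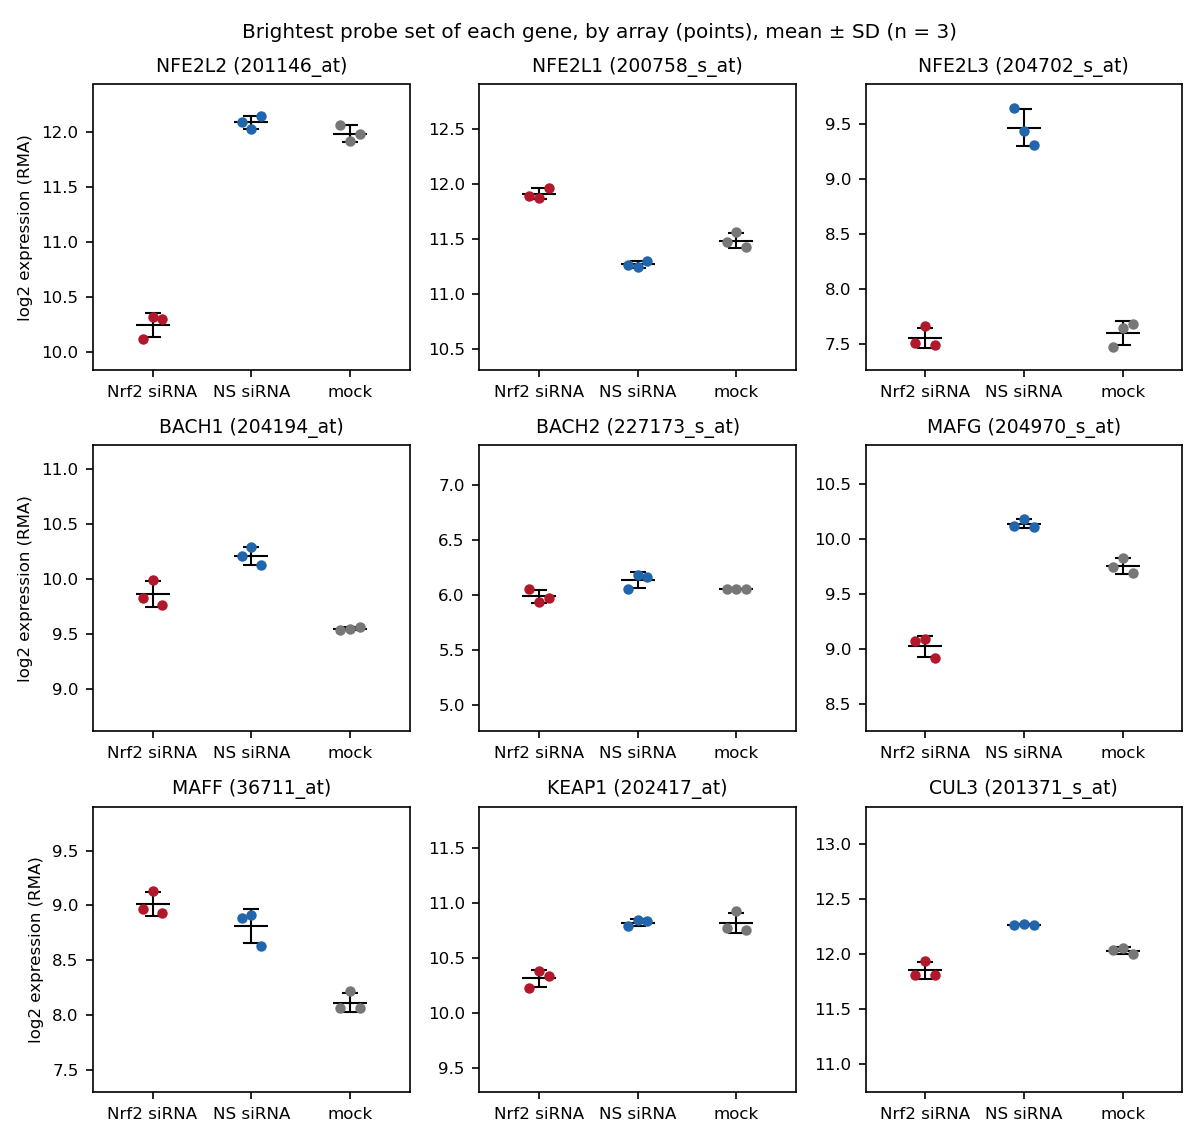
Log2 expression (RMA) of the brightest probe set of each of the 9 genes, by array, with Nrf2 siRNA, NS siRNA and mock from left to right; each panel spans the same log2 range, points are arrays and bars are mean ± SD (n = 3). NFE2L2, MAFG, KEAP1 and CUL3 are lowest after Nrf2 siRNA, NFE2L1 is highest there, NFE2L3 is high after NS siRNA, and MAFF is lowest in mock.

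NFE2L2, the siRNA target, had 3 probe sets. The brightest (201146_at) read 10.12, 10.32 and 10.30 after Nrf2 siRNA, 12.09, 12.03 and 12.15 after NS siRNA, and 12.07, 11.92 and 11.98 in mock. The Nrf2 siRNA arrays lay far below all control arrays, and the 2 control groups overlapped. The level left was 27.9% of NS siRNA (log2 difference -1.84 ± 0.06 SE, adjusted p = 3.09e-10) and 30.0% of mock (-1.74 ± 0.06, adjusted p = 1.01e-09). The second probe set (1567013_at) read 7.67, 7.42 and 7.38 after Nrf2 siRNA, 8.73, 8.60 and 8.58 after NS siRNA, and 8.51, 8.51 and 8.44 in mock. It again separated the Nrf2 siRNA arrays from the controls, with 45.2% of NS siRNA and 50.2% of mock left (adjusted p = 6.83e-08 and 5.21e-07). The dimmest (1567015_at) lay between 7.51 and 7.59 after Nrf2 siRNA and between 7.57 and 7.78 in the controls, with overlapping groups (-0.11 against NS siRNA, 95% interval -0.24 to 0.02, adjusted p = 0.172).

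These 3 probe sets gave different sizes of change for 1 siRNA target. The difference between probe sets was tested itself, in the same model on the within-array difference from the brightest probe set. Against NS siRNA the second probe set changed 0.70 ± 0.11 (SE) less than the brightest on the log2 scale (adjusted p = 0.000352), and the dimmest 1.73 ± 0.09 less (adjusted p = 3.15e-08). Such disagreement was common on this array: 34.5% of 21316 pairs of probe sets passed this test. The dimmest stood below 7.82, the median level of single-gene probe sets, where a change can be understated. The second probe set read 7.38 to 7.67 after Nrf2 siRNA, also below that level. The part of the level in these differences was not tested.

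KEAP1, the substrate adaptor that recognizes NRF2, was lower after Nrf2 siRNA than in both controls. Its probe set (202417_at) read 10.23, 10.38 and 10.33 after Nrf2 siRNA, 10.79, 10.84 and 10.84 after NS siRNA, and 10.77, 10.93 and 10.75 in mock. No Nrf2 siRNA array reached a control array, and the 2 control groups overlapped. KEAP1 fell to 70.4% of NS siRNA (-0.51 ± 0.06, adjusted p = 1.51e-05) and to 70.5% of mock (-0.50 ± 0.06, adjusted p = 3.04e-05). Between NS siRNA and mock it differed by 0.00 (95% interval -0.13 to 0.13). A fall of this transcript says nothing about the activity of the KEAP1 protein, which is mutated in this line.

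The scaffold CUL3, which joins KEAP1 to the ubiquitin machinery, moved less and on 1 of 3 probe sets. The brightest (201371_s_at) read 11.81, 11.94 and 11.81 after Nrf2 siRNA, 12.27, 12.28 and 12.27 after NS siRNA, and 12.04, 12.06 and 12.00 in mock. The 3 groups did not overlap, with Nrf2 siRNA lowest and NS siRNA highest. The differences were -0.42 ± 0.05 against NS siRNA (adjusted p = 1.78e-05) and -0.18 ± 0.05 against mock (adjusted p = 0.0158). Against mock the call was lost without mock replicate 2 (adjusted p = 0.0535), Nrf2 siRNA replicate 1 (0.0551) or Nrf2 siRNA replicate 3 (0.0601), and with the mean of the CUL3 probe sets (0.225), in a range of 0.00134 to 0.225 over the 17 alternatives. The middle probe set (201370_s_at) differed by 0.00 against NS siRNA (95% interval -0.10 to 0.10), and its change differed from that of the brightest by 0.41 ± 0.06 (adjusted p = 0.000207). The third (201372_s_at) averaged 4.94 after Nrf2 siRNA, 5.02 after NS siRNA and 4.96 in mock, among the dimmest on the array, and passed in no comparison.

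A start region of KEAP1 is shown because it holds 2 matches to the core of the antioxidant response element. The other KEAP1 region searched held no match to any of the strings below. The windows run from 250 bases before to 50 bases after each RefSeq start (GRCh38.p14), and all 9 genes matched, with 16 windows. Searched on both strands were TGACNNNGC (the element's core), TGANTCA (the AP-1 and NF-E2 core, which can overlap the first) and TGACGTCA (the cyclic AMP response element). Matches are in capitals, and the sequence is written 5′ to 3′ on the strand of the gene.
KEAP1 (chr19:10502722-10503021, minus strand): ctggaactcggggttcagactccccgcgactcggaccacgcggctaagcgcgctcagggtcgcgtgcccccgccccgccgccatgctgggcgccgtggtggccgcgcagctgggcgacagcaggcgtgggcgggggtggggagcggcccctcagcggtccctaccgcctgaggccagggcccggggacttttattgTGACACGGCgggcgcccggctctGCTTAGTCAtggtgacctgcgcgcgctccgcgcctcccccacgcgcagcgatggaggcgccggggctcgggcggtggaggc
The matches of this KEAP1 window begin 54 and 31 bases before the start site (positions -54 and -31), the second one on the opposite strand. TGACNNNGC occurred in 13.3% of 35116 windows in the table, and in 2 of the 16 windows here, 1 of KEAP1 and 1 of MAFF. TGANTCA occurred in 7.71% of the windows and in 1 of the 16 here, of BACH1. A match is a string of letters and no evidence of binding, and the windows of NFE2L2, NFE2L1, NFE2L3, MAFG and CUL3 held none of the 3 strings.

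The small MAF proteins lack an activation domain of their own and serve as DNA-binding partners of NRF2, its relatives and the BACH repressors. After Nrf2 siRNA MAFG was lower and MAFF higher than in mock, while against NS siRNA only MAFG passed. MAFG (204970_s_at) read 9.07, 9.08 and 8.91 after Nrf2 siRNA, 10.12, 10.18 and 10.11 after NS siRNA, and 9.74, 9.83 and 9.68 in mock. All 3 groups were apart, with Nrf2 siRNA lowest and NS siRNA highest. MAFG fell to 46.2% of NS siRNA (-1.11 ± 0.06, adjusted p = 1.23e-08) and to 60.4% of mock (-0.73 ± 0.06, adjusted p = 1.20e-06). The second MAFG probe set (224466_s_at) lay at 8.17 to 8.45 after Nrf2 siRNA, 9.09 to 9.15 after NS siRNA and 8.83 to 8.93 in mock, again with 3 separate groups. It fell to 57.0% of NS siRNA and 67.2% of mock (adjusted p = 5.87e-07 and 2.56e-05), a change 0.30 ± 0.08 smaller against NS siRNA than that of the brightest (adjusted p = 0.0113; 0.0513 without Nrf2 siRNA replicate 3).

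MAFF was higher with either siRNA than in mock. Its brighter probe set (36711_at) read 8.97, 9.13 and 8.94 after Nrf2 siRNA, 8.89, 8.91 and 8.63 after NS siRNA, and 8.07, 8.22 and 8.07 in mock. Every siRNA array lay above every mock array, and the Nrf2 siRNA arrays lay just above the NS siRNA arrays. Against mock MAFF was 1.86-fold higher after Nrf2 siRNA (0.90 ± 0.08, adjusted p = 2.87e-06). Between the siRNAs the difference was 0.20 (95% interval 0.03 to 0.38) and did not pass (adjusted p = 0.0612). That test passed without NS siRNA replicate 2 (0.0445) and in 3 other settings, in a range of 0.0158 to 0.259 over 17 alternatives. The other MAFF probe set (205193_at) was 0.21 ± 0.06 above mock after Nrf2 siRNA (adjusted p = 0.0173), a change 0.69 ± 0.08 smaller than that of 36711_at (adjusted p = 8.08e-05). It lost its call without mock replicate 1 (0.0616), mock replicate 3 (0.0808) or Nrf2 siRNA replicate 1 (0.0593), in a range of 0.00411 to 0.0808 over 15 alternatives.

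A start region of each of the small MAF genes is shown for comparison with KEAP1. The other MAFF region searched held no match.
MAFF (chr22:38201744-38202043, plus strand): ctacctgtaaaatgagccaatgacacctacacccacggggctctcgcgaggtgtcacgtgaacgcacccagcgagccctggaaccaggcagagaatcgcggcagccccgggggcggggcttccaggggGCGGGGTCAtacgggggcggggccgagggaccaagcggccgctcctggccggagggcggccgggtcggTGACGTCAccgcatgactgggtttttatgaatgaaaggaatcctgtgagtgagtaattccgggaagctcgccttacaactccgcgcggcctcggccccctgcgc
MAFG (chr17:81927686-81927985, minus strand): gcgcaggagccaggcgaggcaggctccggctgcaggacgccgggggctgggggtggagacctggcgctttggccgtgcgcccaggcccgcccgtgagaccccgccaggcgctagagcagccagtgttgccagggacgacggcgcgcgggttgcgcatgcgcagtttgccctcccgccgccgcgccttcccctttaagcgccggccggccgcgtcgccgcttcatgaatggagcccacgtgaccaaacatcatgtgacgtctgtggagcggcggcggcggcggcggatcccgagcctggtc
In the MAFF window the capitals mark a TGACNNNGC match on the opposite strand at position -122 and a TGACGTCA at position -54. TGACGTCA occurred in 1.85% of all windows and in 2 of the 16 here, the other in BACH2. The MAFG window holds none of the 3 strings.

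NFE2L1, the broadly expressed relative, was the member that rose against both controls on every probe set. The brightest (200758_s_at) read 11.89, 11.88 and 11.97 after Nrf2 siRNA, 11.27, 11.24 and 11.30 after NS siRNA, and 11.47, 11.56 and 11.43 in mock. The order was Nrf2 siRNA above mock above NS siRNA, with no overlap. NFE2L1 was 1.56-fold higher than in NS siRNA (0.64 ± 0.05, adjusted p = 4.99e-07) and 1.34-fold higher than in mock (0.43 ± 0.05, adjusted p = 3.77e-05). The other 2 probe sets gave 1.48-fold and 1.43-fold against NS siRNA and 1.33-fold and 1.28-fold against mock, and neither change differed from that of the brightest past the threshold (adjusted p = 0.34 and 0.156 against NS siRNA). NFE2L1 lay above all 6 control arrays on its 3 probe sets.

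NFE2L3 was high in the NS siRNA cells on both probe sets. Its brighter probe set (204702_s_at) read 7.51, 7.66 and 7.49 after Nrf2 siRNA, 9.64, 9.44 and 9.31 after NS siRNA, and 7.47, 7.64 and 7.68 in mock. Every NS siRNA array lay above the other 6, and the Nrf2 siRNA and mock arrays overlapped. NFE2L3 was at 26.6% of NS siRNA after Nrf2 siRNA (-1.91 ± 0.08, adjusted p = 2.56e-09), and at 96.7% of mock (-0.05, 95% interval -0.23 to 0.13, adjusted p = 0.73). The second probe set (236471_at), which is dim, read 5.01, 5.03 and 5.01 after Nrf2 siRNA, 6.69, 6.89 and 6.42 after NS siRNA, and 5.19, 5.05 and 5.11 in mock. Here too the NS siRNA arrays were highest, while each Nrf2 siRNA array lay just below the mock arrays. The differences were -1.66 ± 0.09 against NS siRNA (adjusted p = 1.74e-08) and -0.10 against mock (95% interval -0.30 to 0.10, adjusted p = 0.472).

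BACH1, the heme-sensitive repressor of NRF2 target genes, took a middle position. The brightest probe set (204194_at) read 9.83, 9.99 and 9.77 after Nrf2 siRNA, 10.21, 10.29 and 10.13 after NS siRNA, and 9.54, 9.54 and 9.57 in mock. The 3 groups did not overlap, with mock lowest. After Nrf2 siRNA BACH1 was therefore lower than in NS siRNA (-0.35 ± 0.06, adjusted p = 0.000667) and higher than in mock (0.31 ± 0.06, adjusted p = 0.00214). The direction for BACH1 depends on the control. With the mean of its 3 probe sets the rise against mock was 0.14 and did not pass (adjusted p = 0.0524, in a range of 0.000449 to 0.0524 over 17 alternatives). The other 2 probe sets (234938_at and 234315_at) passed in neither comparison, and the change of 234938_at differed from that of the brightest against mock by -0.34 ± 0.08 (adjusted p = 0.0107).

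BACH2, the relative known mainly from B cells, was dim on both probe sets, at 5.81 to 6.18 over the 9 arrays. The brighter (227173_s_at) read 6.06, 5.94 and 5.98 after Nrf2 siRNA, 6.06, 6.18 and 6.17 after NS siRNA, and 6.06 in each mock array. The equal mock values are as deposited to 4 decimals, and 1.70% of all probe sets had 3 equal values in some group. Nrf2 siRNA replicate 1 and NS siRNA replicate 1 held the same value, 6.0559. The mock SD was thus 0, which lowers the spread that the model shares over the 3 groups. BACH2 passed against NS siRNA at -0.15 ± 0.05 (adjusted p = 0.038) and lost the call in 10 of 16 alternatives (adjusted p 0.0169 to 0.127), 6 of them without 1 array: mock replicate 1 (0.0526) or 3 (0.0503), NS siRNA replicate 2 (0.127) or 3 (0.114), and Nrf2 siRNA replicate 2 (0.119) or 3 (0.0904). Against mock the difference was -0.06 (95% interval -0.18 to 0.05). The second probe set (221234_s_at) passed in no comparison.

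**Figure D2:**
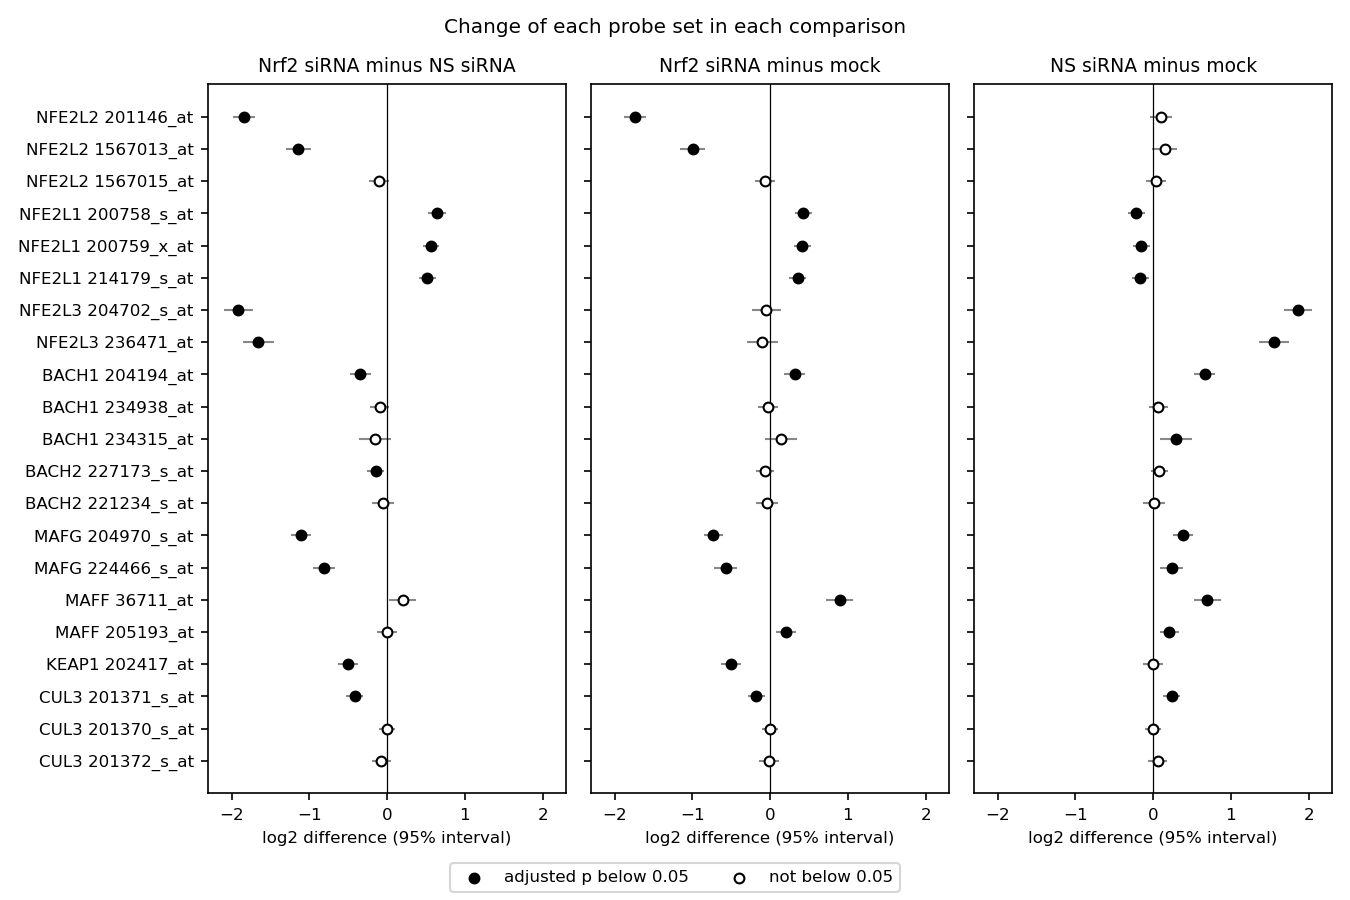
Log2 difference with its 95% interval for each of the 21 probe sets in the 3 comparisons; filled points passed at adjusted p below 0.05 and open points did not. NFE2L2, MAFG and KEAP1 lie left of 0 and NFE2L1 right of 0 in the first 2 panels, while NFE2L3 is left of 0 against NS siRNA and right of 0 for NS siRNA minus mock.

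The comparison of NS siRNA with mock shows how far the members moved with a non-targeting siRNA. Of the 21 probe sets 12 passed, 9 higher and 3 lower. Of all probe sets, not matched for brightness, 25.9% passed, 12.4% higher and 13.5% lower. The median difference was 0.10 over the 21 and 0.03 over all. NFE2L3 was 3.64-fold higher in NS siRNA on the brighter probe set (1.86 ± 0.08, adjusted p = 1.41e-08), a difference larger than that of 99.9% of all probe sets, and 2.94-fold on the other. MAFF (36711_at) was 1.62-fold higher (adjusted p = 3.27e-05), BACH1 (204194_at) 1.58-fold (adjusted p = 6.98e-06), MAFG (204970_s_at) 1.31-fold (adjusted p = 0.00033) and CUL3 (201371_s_at) 1.18-fold (adjusted p = 0.00304; 0.0806 with the mean of its probe sets, in a range of 0.000105 to 0.0806 over 17 alternatives). NFE2L1 was lower on its 3 probe sets, by -0.22, -0.15 and -0.16. NFE2L2 itself differed by 0.10 on the brightest probe set (95% interval -0.04 to 0.24).

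Smaller calls between the controls did not hold in every alternative, and each was lost on leaving out any 1 of several arrays. NFE2L1 200759_x_at (adjusted p = 0.0417) was lost without mock replicate 1 (0.105) or 2 (0.151), NS siRNA replicate 1 (0.127) or 2 (0.103), or Nrf2 siRNA replicate 3 (0.0514). NFE2L1 214179_s_at (0.0247) was lost without mock replicate 1 (0.0593) or 2 (0.0861), or NS siRNA replicate 1 (0.0687) or 2 (0.0993). With quantile normalization both were lost as well (0.109 and 0.0867), and only the brightest NFE2L1 probe set (200758_s_at, adjusted p = 0.00721) passed in every alternative. The second MAFG probe set (0.0175) was lost without mock replicate 3 (0.0693) or NS siRNA replicate 1 (0.0552) or 2 (0.0521). The second MAFF probe set (0.0181) was lost without mock replicate 1 (0.0634) or 3 (0.0802) or NS siRNA replicate 2 (0.0759). The dimmest BACH1 probe set (234315_at, 0.0334) was lost without mock replicate 2 (0.112) or NS siRNA replicate 1 (0.107) or 3 (0.105), and in the fit of 2 groups (0.0648). Over all alternatives the adjusted p of these 5 probe sets ran up to 0.151, 0.0993, 0.0693, 0.0802 and 0.112 and down to 0.0119, 0.00862, 0.00457, 0.00451 and 0.0121.

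**Figure D3:**
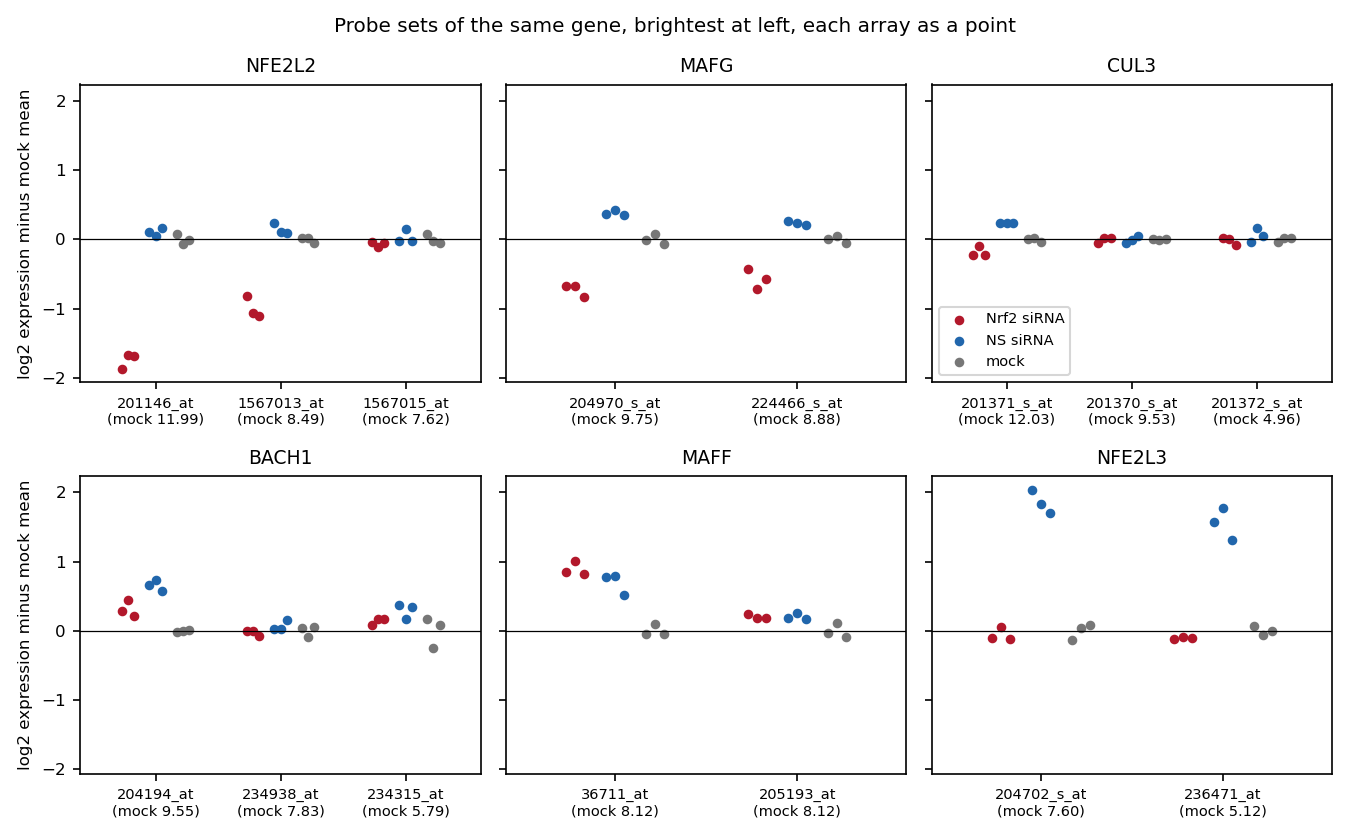
Log2 expression minus the mock mean for the probe sets of 6 genes, brightest at left, with Nrf2 siRNA, NS siRNA and mock side by side and each array as a point. The NFE2L2 probe sets fall by different amounts after Nrf2 siRNA, 2 of 3 CUL3 probe sets stay near 0, and both NFE2L3 probe sets are high in the NS siRNA arrays.

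Over the 12 pairs of a further probe set with the brightest of its gene, 6 gave different changes against NS siRNA, 4 against mock and 4 between the controls. The shares over all 21316 pairs were 34.5%, 21.0% and 19.3%. The 6 against NS siRNA were the 2 of NFE2L2, the 2 of CUL3, 224466_s_at of MAFG and 234938_at of BACH1. The BACH1 pair differed by 0.25 ± 0.08 (adjusted p = 0.031), a call that failed when NS siRNA replicate 1 (0.0932) or 2 (0.129), or Nrf2 siRNA replicate 1 (0.0904) or 3 (0.0905), was left out. In each of these 6 pairs the further probe set, the dimmer one by definition, had the smaller difference. The mean levels of these 6 over the 9 arrays ran from 4.97 (CUL3 201372_s_at) to 9.53 (CUL3 201370_s_at). The part of the level in these differences was not tested.

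Patterns most like each member over the 9 arrays are given as a description; the 9 arrays fall into 3 groups, so r mostly reflects the group means. NFE2L2 was followed most closely by the NRF2 target genes GCLM (Pearson r = 0.9987), PTGR1 (0.9982) and AKR1C1 (0.9972), and by HTATIP2 (0.9970) and GPR6 (0.9965). GCLM differed by -2.24 and -2.06 against NS siRNA and mock, and GPR6 by -0.27 and -0.26. AKR1C1 probe sets may also read its near-identical relatives. MAFG ran closest to ALDH1B1 (0.9986) and HAUS7 (0.9979), KEAP1 to MCM5 (0.9949) and KIAA0930 (0.9944), and CUL3 to ANKEF1 (0.9959) and EXOSC3 (0.9957). NFE2L1 ran closest to CD276 (0.9966) and TRAK1 (0.9956), MAFF to UACA (0.9985) and STAT3 (0.9877), and NFE2L3 to COXFA4L3 (0.9958) and RAB9A (0.9953). BACH1 ran closest to GTF3C6 (0.9893) and SNW1 (0.9885), and BACH2 to KRTAP11-1 (0.9953) and STX11 (0.9894).

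A wider list of 28 genes that bind, degrade, modify or assist NRF2 and its relatives held 25 with a single-gene probe set. Read on the brightest probe set of each, 8 fell and 6 rose against NS siRNA and 11 did not pass, with a median of -0.03. Against mock 7 fell, 7 rose and 11 did not pass (median -0.02). Over all single-gene probe sets, not matched for brightness, 21.5% fell and 20.2% rose against NS siRNA, and 13.3% and 15.2% against mock. These shares count every probe set of a gene. On the brightest probe set alone, adjusted over genes, 5266 of all 19775 genes fell and 4156 rose against NS siRNA. Against mock the numbers were 3296 and 3234. SQSTM1, the autophagy receptor that captures KEAP1, fell most in this list, to 12.23 after Nrf2 siRNA, against 13.63 after NS siRNA and 13.24 in mock (adjusted p = 2.74e-10 and 9.50e-09), with the same sign against NS siRNA on all 5 of its probe sets. EIF2AK3 (PERK), a kinase of the endoplasmic reticulum stress response that phosphorylates NRF2, rose by 1.17 and 0.49 against NS siRNA and mock, with 1 of 2 probe sets of that sign against NS siRNA. TNFAIP1, another CUL3 substrate adaptor, rose by 1.03 and 0.50 (adjusted p = 2.81e-09 and 3.70e-06). CREBBP, a coactivator that acetylates NRF2, rose by 0.61 and 0.22, with 2 of 4 probe sets of that sign against NS siRNA. RBX1, the RING subunit of the CUL3 ligase, differed by 0.09 and -0.07 and passed in neither comparison.

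**Figure D4:**
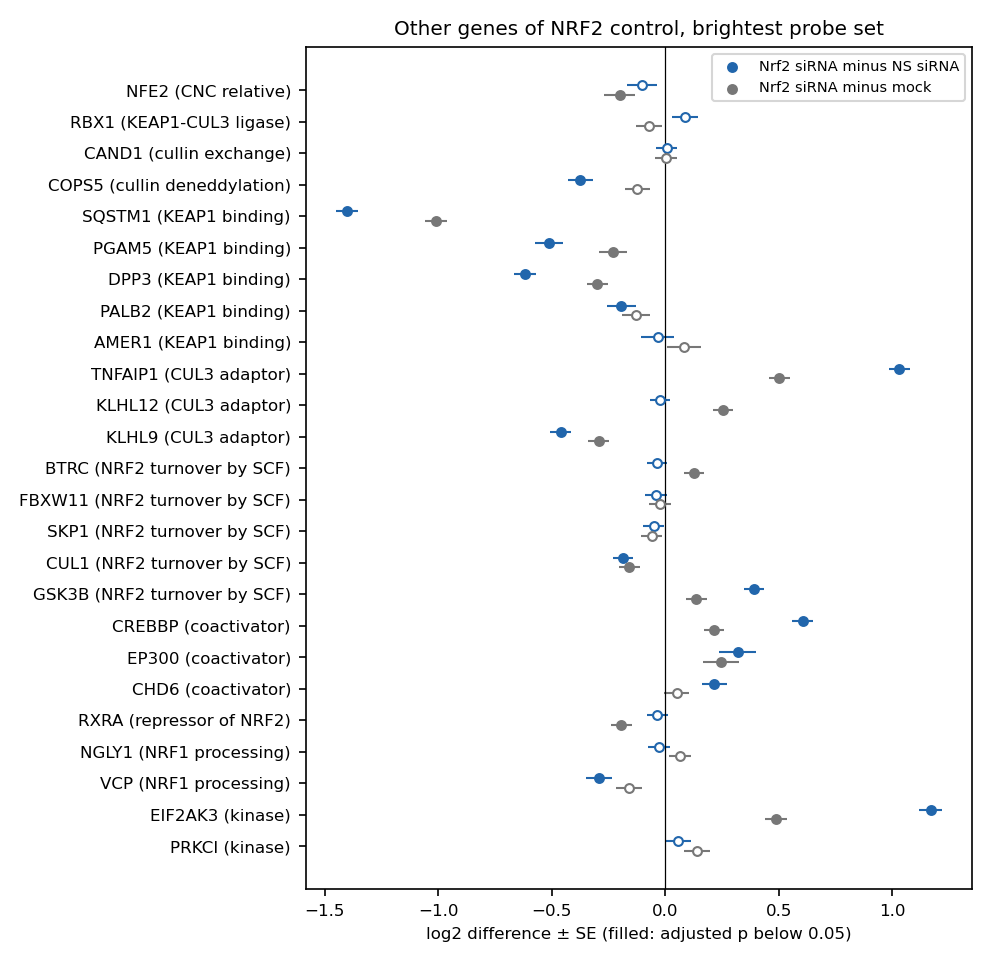
Log2 difference ± SE of 25 other genes of NRF2 control on their brightest probe set, Nrf2 siRNA minus NS siRNA (blue) and minus mock (grey); filled points passed at adjusted p below 0.05. SQSTM1 lies farthest left and EIF2AK3 and TNFAIP1 farthest right, each closer to 0 against mock.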

How the data were processed

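Total RNA of 9 A549 cultures was isolated with TRIZOL and RNeasy columns, and biotinylated cRNA was read on Affymetrix arrays, per the labels' protocols. The authors deposited log2 values per probe set, which the submitters' processing notes credit to RMA (version and settings not given in the sources used here). RMA normalizes between arrays and summarizes probes into probe sets, and differences of dim probe sets can be compressed. Scanner files and detection calls were not used here.

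Samples were grouped by title. Of 54675 probe sets, 62 controls, 1801 with several genes and 11721 unnamed ones stayed out. The remaining 41091 were fitted with limma 3.58.1 in R 4.3.3 (3 group means, 6 residual degrees of freedom, eBayes prior 6.20), two-sided and adjusted over all of them. The 21316 differences between a further probe set and the brightest of its gene were fitted likewise. SE and 95% intervals are the model's. Where nothing shows how the replicate cultures were separated, p-values measure the spread between these samples. In simulated arrays of 41091 probe sets (Nrf2 siRNA against NS siRNA), 50 were changed by 2-fold, 50 by 1.5-fold and 100 by 1.25-fold. The fit recovered 100%, 94% and 57% of them, with 6 false calls. In simulated pairs of probe sets with the same numbers changed it recovered 98%, 78% and 32%, with 10 false calls. Far fewer were changed there than were called in the data, and each probe set was drawn independently. Simulated probe sets of 1 gene thus shared no noise within an array. For both reasons recovery in the data can differ. Sequences are from RefSeq (GRCh38.p14). Figures used matplotlib 3.10.9 in Python 3.11.15.

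The members, lists and tests were chosen with earlier results of these data known. All 21 member probe sets are named. Of the wider list, the 4 with the lowest adjusted p relative to NS siRNA were named, and RBX1 and the marker genes were added after their values were seen. The genes most like a member were the 5 highest correlations for NFE2L2 and the 2 highest for each other member with a call. Alternatives were equal array medians, quantile normalization, a filter on dim probe sets, 1 probe set or the mean per gene, a robust eBayes with a variance trend, a fit on 2 groups, a replicate block and leaving out each array.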

Additional observations from a re-analysis of the deposited data

How the results depend on the processing

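Over 17 alternatives, 981 values of a member probe set in a comparison were recomputed, and 935 kept their side of the threshold, 42 lost a call and 4 gained one. The sign changed in 21 of the 935, all of them uncalled differences of at most 0.06 on the log2 scale, and in none of the others. Of 63 pairs of probe set and comparison, 52 kept their call throughout, and the 11 others are named with their values in the report. With the brightest probe set standing for each gene, 8 of 9 genes passed against NS siRNA, 7 against mock and 6 between the controls. Of all 19775 genes read this way, 4156 were called higher and 5266 lower against NS siRNA. Against mock the numbers were 3234 and 3296, and between the controls 3083 and 2999. With the probe sets of each gene averaged, 7, 5 and 5 of the 9 genes passed. In that setting 4114 of all genes were higher and 5366 lower against NS siRNA. The numbers were 3184 and 3217 against mock, and 2972 and 2835 between the controls. Both sets of member counts are lower than the 13, 12 and 12 of 21 probe sets because 9 genes enter in place of 21 probe sets. Leaving out 1 array gave 12 to 13, 10 to 12 and 8 to 12. The replicate numbers were not taken as pairs in the main fit. Deviations from the group means correlated above 0.1 in 5 of 9 same-numbered pairs of arrays (-0.188 to 0.189). They did so in 4 of 18 differently numbered ones (-0.305 to 0.159), a smaller share, so that weak pairing was not settled. With the replicate block, 13, 12 and 11 probe sets passed; BACH2 227173_s_at (0.0537) was lost and MAFF 36711_at (0.0158) gained against NS siRNA, and NFE2L1 200759_x_at was lost between the controls (0.0573). The NFE2L2 level left on its brightest probe set ranged from 27.1 to 29.2% of NS siRNA with other scalings and without single arrays; that of the dimmest was 96.7% without NS siRNA replicate 2. Of the 12 same-gene pairs, 4 to 7 gave different changes against NS siRNA. Probe sets below the median level have no background test.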

Other observations

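Probe sets that the annotation gives to a member and another gene stayed out of the comparisons. One shared by NFE2L2 and CSNK2A1 (1567014_s_at) averaged 9.48 after Nrf2 siRNA, 9.23 after NS siRNA and 9.52 in mock, and so did not show the fall of the 2 brighter NFE2L2 probe sets. One shared by BACH1 and GRIK1-AS2 (210818_s_at) averaged 7.27, 7.51 and 7.19 in the same order of groups, which is the order of the brightest BACH1 probe set. The other 2 BACH1 probe sets of this kind averaged 4.93, 4.99 and 4.85 (1552401_a_at) and 4.01, 4.05 and 4.02 (1553607_at).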
